A study of Mus musculus with 16 samples.

Results

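The genes studied here were 7 transcription factors that work at the output of the circadian clock, Dbp, Tef, Hlf, Nfil3, Bhlhe40, Bhlhe41 and Rora. They were taken by symbol from the expression table of mouse quadriceps, in which they are 7 of 23970 symbols, and each was found once. All 7 had a mean of at least 0.5 FPKM and were among the 11256 genes tested. FPKM, fragments per kilobase relative to all fragments mapped, allows levels of genes of different length to be compared.

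The RNA came from 16 male C57BL/6NTac mice of 16 weeks of age, 4 in each of 4 groups, and each library was 1 muscle. For 10 weeks the mice ate a control diet with 10% of its energy from fat (CON) or a high-fat diet with 60% (HFD). CON-pre and HFD-pre muscles were taken under basal conditions, and CON-post and HFD-post muscles 3 h after one treadmill run to exhaustion, each time point from other mice. According to the Methods, mice that ran were fasted for 3 h before the test and received no food afterwards, and acclimatization and fasting were matched in the pre groups. Whether that covers the hours after the run is not stated. The clock time of collection in each group is not given in the sources used here, so exercise and time of day cannot be told apart in any difference between pre and post muscles. In whole muscle, fewer cells of a type and less RNA per cell cannot be told apart either.

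The circadian clock is a loop in which CLOCK and BMAL1 (the product of Arntl) switch on genes through E-boxes, and the PER and CRY proteins made from those genes switch them off again. The clock reaches other genes through transcription factors that it drives. DBP, TEF and HLF are related activators of the PAR bZIP family that bind D-boxes, and NFIL3 (E4BP4) represses through the same sites. BHLHE40 and BHLHE41 (DEC1 and DEC2) are repressors that bind E-boxes, and RORA activates Arntl and other genes through ROR elements, where it competes with the repressors NR1D1 and NR1D2. Skeletal muscle has such a clock, which is linked to its use of glucose and fat.

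The letters of these elements were searched on both strands in the 250 bases before a RefSeq transcript start in GRCm38.p6, together with the cAMP response element (CRE), through which the CREB factors act. There were 7 windows for the 6 genes other than Bhlhe40 (Tef has 1 for each of its promoters). The transcript start used lay inside the outer end of the annotated gene by 1839 bases for Nfil3, 382 for Rora, 147 for Dbp and 8741 for the second promoter of Tef. The stretches that held a match are shown because their letters are those of elements bound by clock factors or, for Hlf, by CREB factors. Each is written 5′ to 3′ on the strand of its gene, with the match in capitals and up to 25 bases on each side.
Bhlhe41, minus strand, chr6:145865543-145865598, E-box: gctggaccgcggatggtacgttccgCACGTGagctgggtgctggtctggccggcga
Tef, plus strand, chr15:81802521-81802576, E-box: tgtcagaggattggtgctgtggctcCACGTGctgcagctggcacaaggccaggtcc
Tef, plus strand, chr15:81811251-81811306, E-box: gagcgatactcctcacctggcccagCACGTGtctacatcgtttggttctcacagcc
Hlf, minus strand, chr11:90390918-90390951, CRE: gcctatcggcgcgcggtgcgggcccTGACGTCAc
Nfil3, minus strand, chr13:52981040-52981076, ROR half-site: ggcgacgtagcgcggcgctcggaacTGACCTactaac
The E-box (CACGTG) of Bhlhe41 began at −153 relative to the transcript start used, and those of Tef at −127 and −138. Of all 32851 windows of this length, 6.02% held this E-box. The CRE (TGACGTCA) of Hlf began at −9, and 1.55% of windows held one. Nfil3 had a ROR half-site (AGGTCA, here on the other strand) that began at −12, and 14% of windows held one. A D-box (TTATGTAA or TTACGTAA) was in 0.931% of windows and in none of the 7. The windows of Dbp and Rora held none of the 4 motifs. The 4 sets of letters do not overlap in these matches, and a match is a run of letters, with no measurement of binding.

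In GRCm38.p6 the genes lie at chr7:45705100-45710203 (Dbp), chr15:81802673-81826863 (Tef), chr11:90336535-90390917 (Hlf), chr13:52967209-52982878 (Nfil3), chr6:108660629-108666925 (Bhlhe40), chr6:145858243-145865420 (Bhlhe41) and chr9:68653404-69388246 (Rora). Dbp shares 741 bases with Sphk2, Bhlhe40 shares 306 bases with the noncoding 0610040F04Rik, and 5 noncoding genes lie over Rora. The libraries were stranded, but whether strand was used in the estimates is not given in the sources used here, so the values of these 3 genes are less certain.

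The library sums lay between 283575 and 329282 FPKM, and pairs of libraries correlated across genes with r from 0.966 to 0.984. The depth behind the values is not known from FPKM, but the size of the lowest values put the depth of each library at 0.702 to 1.13 times that of CON-pre replicate 1. The deepest libraries were replicate 4 of HFD-pre (1.13) and replicate 4 of CON-pre (1.11). The muscle identity of the libraries was clear from 10 markers such as Ckm and Acta1, whose summed level was 51890 to 71290 FPKM, whereas 4 liver markers summed to 0.271 to 22.7 FPKM.

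Tef was the most abundant of the 7 factors, with a mean of 62.2 FPKM over the 16 libraries, a level above that of 95.2% of the genes tested. It was followed by Dbp (31.8 FPKM), Bhlhe40 (25.9 FPKM), Nfil3 (12.1 FPKM), Rora (9.86 FPKM), Bhlhe41 (6.90 FPKM) and Hlf (3.15 FPKM, above 40.1% of genes). Only the steps from Tef to Dbp and from Bhlhe41 to Hlf separated all libraries. Dbp exceeded Bhlhe40 in 9 of 16 libraries, Bhlhe40 exceeded Nfil3 in 15 and Nfil3 exceeded Rora in 12, so neighbours in the middle of this order were not apart in every muscle. Rora exceeded Bhlhe41 in all 16 libraries, although their ranges over libraries overlapped. Within groups, the SD of Tef was 4.20 to 9.43% of the mean, and that of Dbp reached 32.6% in HFD-pre. Tef had the smallest relative SD of the 7 in every group except CON-post, where Nfil3 (7.81%) and Rora (9.12%) varied less.

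**Figure D1:**
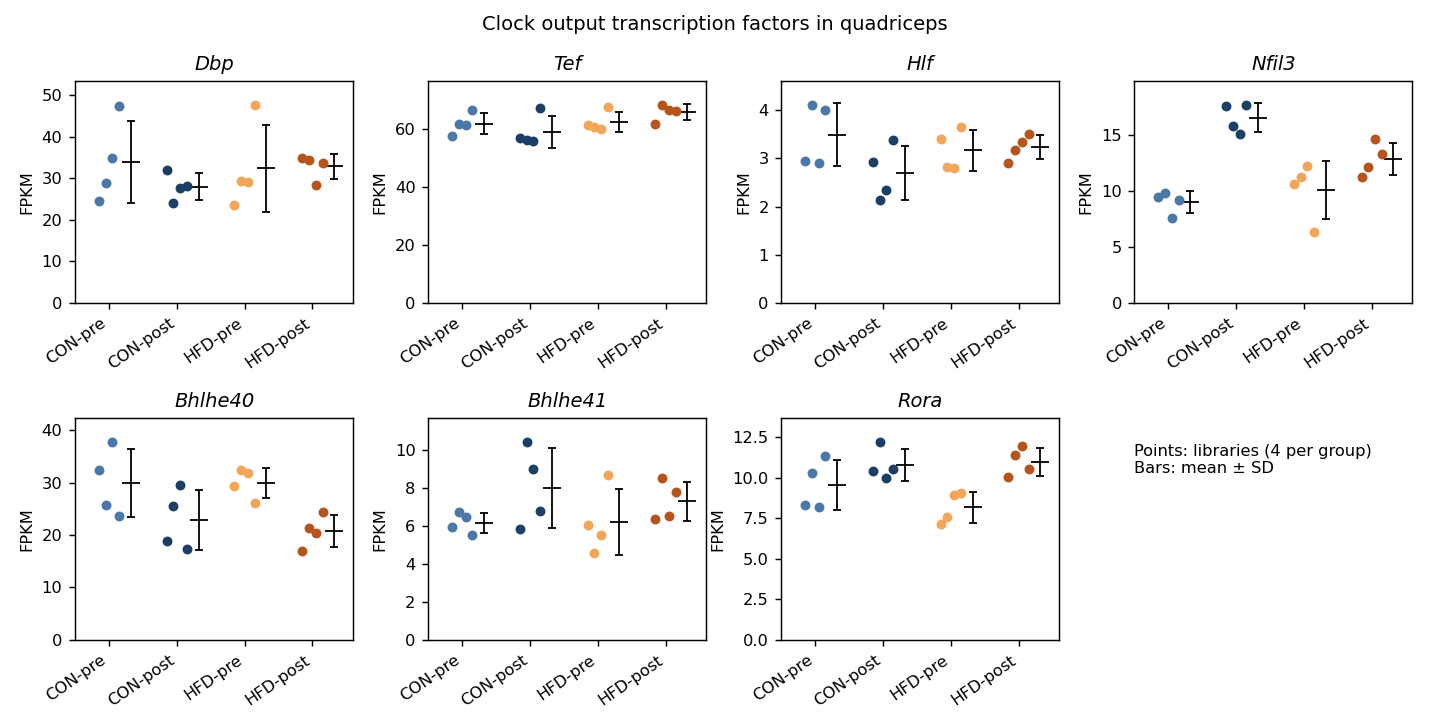
FPKM of each factor in the 16 quadriceps libraries, by group, on a linear axis from 0 for each gene. Points are libraries and bars are mean ± SD (n = 4). All CON-post points of Nfil3 (15.1 to 17.7 FPKM) lie above those of every other group, and Dbp has 1 high library in each pre group.

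Nfil3, the D-box repressor, was the member with the clearest response. Its level was 9.47, 9.79, 7.62 and 9.23 FPKM in the CON-pre muscles and 17.6, 15.8, 15.1 and 17.7 FPKM in the CON-post muscles. In HFD mice it was 10.6, 11.3, 12.2 and 6.34 FPKM before exercise and 11.3, 12.2, 14.6 and 13.3 FPKM after. On CON the groups were fully apart, and on HFD they overlapped, with the fourth HFD-pre muscle below every other library of the series. Nfil3 rose on CON by 0.84 on the log2 scale (SE 0.15, 95% confidence interval 0.52 to 1.16, limma adjusted p = 0.00817), that is 1.79-fold. On HFD its log2 fold change was 0.36 (SE 0.15, adjusted p = 0.359, unadjusted p = 0.0308), which did not pass, and without the fourth HFD-pre library it was 0.16. Averaged over both diets Nfil3 rose by 0.60 (SE 0.11, adjusted p = 0.00425). The call on CON and the averaged call were retained in all 28 and all 27 alternative fits, with an adjusted p of at most 0.0324 and 0.0161, respectively.

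The difference between the responses of Nfil3 on CON and on HFD did not pass the test. The interaction of diet and exercise was −0.48 (SE 0.22, 95% confidence interval −0.94 to −0.02, unadjusted p = 0.0417), but its adjusted p was 1.00 in limma. After exercise, all HFD-post muscles were below all CON-post muscles, with means of 12.8 ± 1.45 FPKM against 16.5 ± 1.29 FPKM (SD, n = 4). This gave an exact permutation p of 0.0286, the smallest that 4 against 4 allows, and a log2 fold change of −0.36 with an adjusted p of 0.738 in limma. The CON-post libraries enter both this comparison and that of exercise on CON, so they do not bear on each other independently. Before exercise Nfil3 did not differ detectably between diets (0.12, 95% confidence interval −0.20 to 0.45), although the value was 0.32 without the fourth HFD-pre library and 0.02 without the third (adjusted p = 0.347 and 0.994).

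Bhlhe40, one of the E-box repressors, was lower after exercise. Its level was 32.4, 25.7, 37.9 and 23.6 FPKM in CON-pre and 18.9, 25.7, 29.5 and 17.2 FPKM in CON-post. In HFD mice it was 29.4, 32.5, 31.8 and 26.1 FPKM before and 16.9, 21.4, 20.4 and 24.4 FPKM after exercise. The CON groups overlapped, since the second and the third CON-post muscle lay within the range of CON-pre, and the HFD groups were apart (exact permutation p = 0.0286). Averaged over diets, Bhlhe40 fell by 0.46 on the log2 scale (SE 0.12, adjusted p = 0.0447, limma), to 0.729 of its level before exercise. Within 1 diet it did not pass, with −0.39 on CON (adjusted p = 0.409) and −0.52 on HFD (adjusted p = 0.231, unadjusted p = 0.00727). The averaged call lay near the threshold: it was kept in 13 of 27 alternative fits, with an adjusted p of 0.0175 to 0.137, and was lost when any of 11 of the 16 libraries was left out (adjusted p of 0.0199 to 0.0981 over all 16). It was also lost with no filter (adjusted p = 0.0851) and no mean-variance trend (0.0558). It was kept without replicate 4 of CON-pre, HFD-pre or HFD-post or replicate 2 or 3 of CON-post. The fold change stayed below 0 in all 27, between −0.54 and −0.27.

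Bhlhe41, its paralogue, lay at 5.93, 6.69, 6.44 and 5.51 FPKM in CON-pre and at 5.79, 10.4, 8.95 and 6.76 FPKM in CON-post. In HFD-pre it was 6.02, 4.57, 5.49 and 8.65 FPKM, and in HFD-post 6.35, 8.51, 6.48 and 7.76 FPKM. The groups overlapped on both diets. The second and the third CON-post muscle, which had the highest Bhlhe40 of their group, also had its highest Bhlhe41. Averaged over diets its log2 fold change was 0.28 (SE 0.13, adjusted p = 0.240, unadjusted p = 0.0389, limma), opposite in sign to that of Bhlhe40 but not past the threshold.

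Rora, the activator at ROR elements, was higher after exercise in the average of both diets. It measured 8.30, 10.3, 8.19 and 11.3 FPKM in CON-pre and 10.4, 12.2, 9.98 and 10.5 FPKM in CON-post. In HFD-pre it was 7.12, 7.55, 8.90 and 9.06 FPKM and in HFD-post 10.03, 11.4, 11.9 and 10.5 FPKM. On CON the groups overlapped, while on HFD every muscle after exercise exceeded every muscle before it (exact permutation p = 0.0286). Averaged over diets Rora rose by 0.29 on the log2 scale (SE 0.078, adjusted p = 0.0442, limma), or 1.23-fold. The change was 0.18 on CON (adjusted p = 0.584) and 0.41 on HFD (adjusted p = 0.134, unadjusted p = 0.00180), and the interaction was 0.23 (95% confidence interval −0.10 to 0.56). The change on CON was 0.12 without replicate 3 of CON-pre, and the interaction 0.15 without replicate 4 of CON-pre. This averaged call also lay near the threshold: it was kept in 9 of 27 alternative fits, with an adjusted p of 0.0112 to 0.185 and a fold change of 0.23 to 0.36, and was lost when any of 12 of the 16 libraries was left out (adjusted p of 0.0150 to 0.101 over all 16). It was also lost with upper-quartile scaling (adjusted p = 0.0611), quantile normalization (0.0680), no filter (0.0709), no mean-variance trend (0.0542) and a replicate block (0.0505). It was kept without replicate 4 of CON-pre, replicate 3 or 4 of HFD-pre or replicate 1 of HFD-post.

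The 3 PAR bZIP activators, Dbp, Tef and Hlf, were called in none of the comparisons. Dbp was 24.5, 28.8, 35.03 and 47.4 FPKM in CON-pre, 32.03, 24.04, 27.6 and 28.2 FPKM in CON-post, 23.5, 29.3, 29.1 and 47.7 FPKM in HFD-pre and 35.02, 34.5, 28.3 and 33.7 FPKM in HFD-post. The highest value of each pre group was that of replicate 4, which was also the deepest library of the group. These 2 libraries also had the lowest Arntl (2.68 and 3.81 FPKM), the lowest Nr1d1 (39.6 and 35.6 FPKM) and the highest Per2 (4.76 and 4.33 FPKM) of their groups, and the part of depth or of the clock genes in their Dbp was not tested. The log2 fold change of Dbp with exercise was −0.24 on CON (95% confidence interval −0.66 to 0.18) and 0.07 on HFD (−0.35 to 0.48). Without both of these libraries, a choice made after the values were seen, these changes were −0.07 and 0.27 (adjusted p = 0.868 and 0.342, limma).

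Tef, the most abundant activator, ranged from 55.7 to 68.3 FPKM over all libraries, and its narrow spread bounds the change most closely. In CON-post it was 56.8, 56.1, 55.7 and 67.3 FPKM, with 1 muscle far above the other 3. Its log2 fold change with exercise was between −0.22 and 0.08 on CON and between −0.08 and 0.23 on HFD (95% confidence intervals). Hlf, the least abundant, was 2.95, 4.11, 2.90 and 4.01 FPKM in CON-pre and 2.92, 2.14, 2.34 and 3.38 FPKM in CON-post, and ranged from 2.80 to 3.64 FPKM in HFD-pre and from 2.91 to 3.50 FPKM in HFD-post. These groups overlapped, and the change of −0.32 on CON did not pass (SE 0.14, adjusted p = 0.377, unadjusted p = 0.0296, limma).

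Over the 7 factors, exercise on CON called 1 (Nfil3), where 1.11% of all genes were called, and 3 of the 7 had an unadjusted p under 0.05, against 11.1% of all genes. Exercise on HFD called 0, against 0.542% of all genes, while 3 of the 7 (Nfil3, Bhlhe40 and Rora) had an unadjusted p under 0.05 in limma, against 11.7% of all genes. Exercise averaged over diets called 3, of which Nfil3 and Rora rose and Bhlhe40 fell, against 3.86% of all genes. The median log2 fold change of the 7 in this contrast was 0.00, and that of all genes was 0.01. Groups that did not overlap were found for 1 factor with exercise on CON (5.82% of all genes), for 2 with exercise on HFD (6.81%), for 0 with diet before exercise (5.62%) and for 1 with diet after exercise (3.16%). The 2 exercise comparisons set different libraries against each other, but in limma they share the estimate of spread from all 16. The factors were chosen with earlier results of these data known, so these counts are a description.

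Diet alone gave no call. Before exercise 0 of 7 were called by limma and 0 had an unadjusted p under 0.05, against 0.346% and 8.25% of all genes. After exercise 0 were called, against 0.151% of genes, and 2 (Tef, higher in HFD-post, and Nfil3, lower) had an unadjusted p under 0.05, against 6.29% of all genes. Averaged over exercise states, 0 were called and 0 had an unadjusted p under 0.05, against 0.959% and 10.4% of all genes. The interaction called 0 of the 7 and 0.00% of all genes, with 1 factor (Nfil3) and 3.16% of all genes (356) at an unadjusted p under 0.05. The 95% confidence intervals of the diet differences before exercise reached farthest for Dbp (−0.49 to 0.34), so a difference of 1 on the log2 scale lay outside the interval of every factor.

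**Figure D2:**
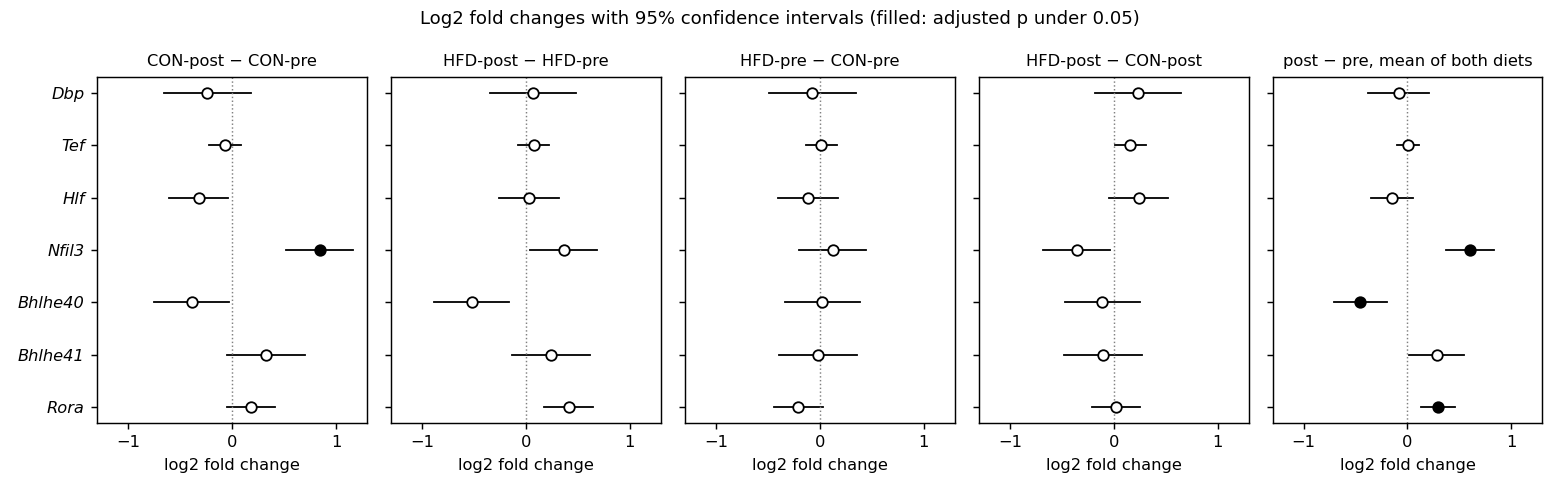
Log2 fold changes of the 7 factors in 5 contrasts of the limma fit, with 95% confidence intervals as lines. Filled points have an adjusted p under 0.05 over 11256 genes. The filled points are Nfil3 on CON (0.84) and, averaged over diets, Nfil3 (0.60), Bhlhe40 (−0.46) and Rora (0.29), and no diet contrast has one.

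**Figure D3:**
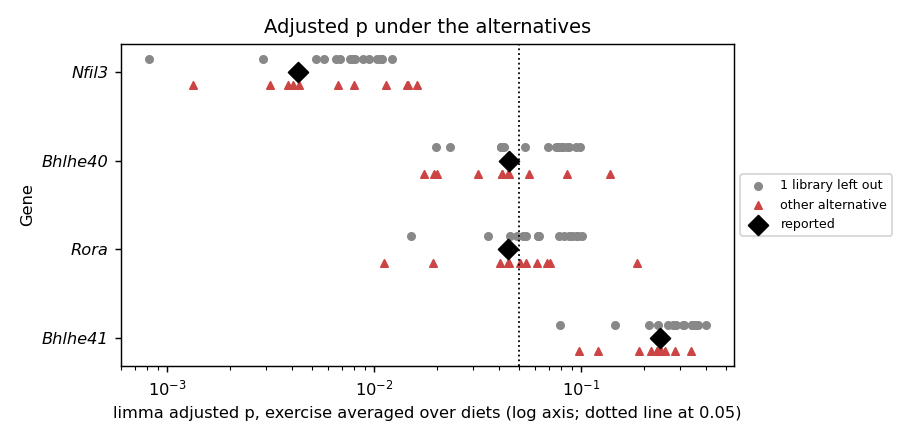
Adjusted p of the exercise contrast averaged over diets for 4 factors, on a log axis, with the reported fit, the fits that leave out 1 library and the other alternatives as separate symbols. Nfil3 stays at or below 0.0161 throughout, Bhlhe40 and Rora lie on both sides of the dotted line at 0.05, and Bhlhe41 stays above it.

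Mice of the same group differed from each other in their clock genes. Arntl, the gene of the activator BMAL1, was 8.85, 4.20, 6.33 and 2.68 FPKM in CON-pre and 2.82, 6.95, 7.75 and 3.02 FPKM in CON-post. In HFD-pre it was 7.96, 5.54, 5.05 and 3.81 FPKM, and in HFD-post 2.47, 3.03, 2.94 and 3.09 FPKM. The CON-post group thus held a pair of muscles with high Arntl, replicates 2 and 3, and a pair with low Arntl, replicates 1 and 4, whereas all HFD-post muscles were low. Nr1d1, a repressor that the loop drives, was 59.5 and 58.0 FPKM in the first pair and 18.2 and 19.1 FPKM in the second.

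With each group mean subtracted, Bhlhe40 had a positive r with Arntl that did not pass after adjustment (Pearson r = 0.81, permutation p = 0.00848, adjusted p = 0.0769 over 35 pairs; Spearman rho = 0.84, permutation p = 0.00479, adjusted p = 0.0559; n = 16 libraries). Without the 2 libraries farthest from the median this r was 0.75. The r of the 3 PAR bZIP activators with Arntl was negative, at −0.71 for Dbp, −0.63 for Tef and −0.70 for Hlf (adjusted p = 0.0769, 0.103 and 0.122 by permutation). Their r with Per2, a repressor gene of the loop, was 0.65, 0.70 and 0.80 (adjusted permutation p = 0.0769 for each). None of these pairs passed an adjusted p of 0.05 for r. Same-numbered muscles of CON-pre and HFD-pre had like levels of some clock genes, Nr1d1 being 66.7, 53.2, 51.9 and 39.6 FPKM in CON-pre and 63.6, 53.8, 52.0 and 35.6 FPKM in HFD-pre. The permutations treat these libraries as independent, and whether they shared a day or time of collection is not given in the sources used here. Nfil3 had an r of 0.03 with Arntl and of 0.02 with Per2 (adjusted permutation p = 0.987 for both).

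Of the 35 pairs examined, 21 between the factors and 14 with Arntl or Per2, only Tef with Hlf passed for r (Pearson r = 0.76, permutation p = 0.00127, adjusted p = 0.0444; Spearman rho = 0.72, permutation p = 0.00117, adjusted p = 0.0409). Without the 2 farthest libraries r was 0.63. Dbp had an r of 0.54 with Tef and of 0.38 with Hlf, which fell to 0.23 and 0.11 without its 2 farthest libraries. Tef with Per2 passed for rho alone (0.70, adjusted permutation p = 0.0437). This count depended on scaling and on single libraries: it was 11 after upper-quartile scaling, 0 after quantile normalization and 0 to 3 when 1 library was left out. Hlf and Bhlhe40 had a negative r that did not pass (r = −0.72, adjusted permutation p = 0.103), as had Nfil3 and Bhlhe41 (r = −0.65, adjusted permutation p = 0.103). Without the 2 farthest libraries these were −0.64 and −0.47.

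**Figure D4:**
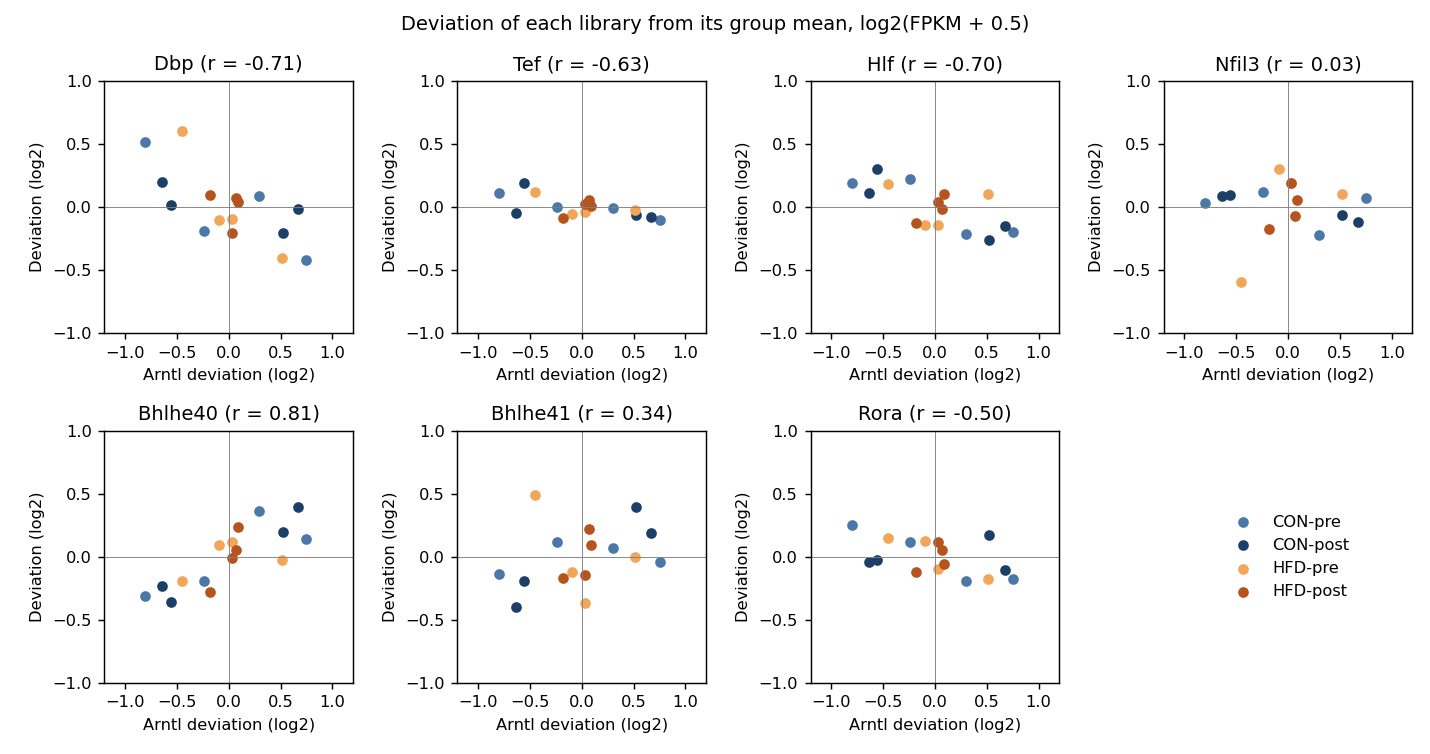
Deviation of each factor (vertical axes) and of Arntl (horizontal axes) from the group mean on the log2(FPKM + 0.5) scale, with 1 point per library coloured by group. The r with Arntl is 0.81 for Bhlhe40, −0.71, −0.63 and −0.70 for Dbp, Tef and Hlf, and 0.03 for Nfil3, none past an adjusted p of 0.05.

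**Figure D5:**
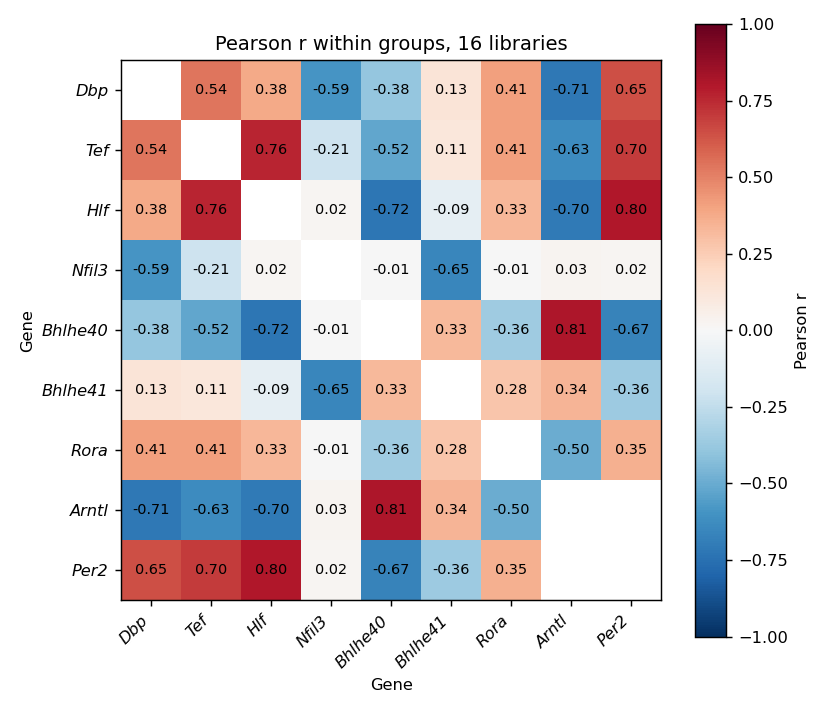
Pearson r of deviations from the group means for all pairs of the 7 factors and for each factor with Arntl and Per2 over 16 libraries, from blue (negative) to red (positive), with blank cells where no pair was computed. Dbp, Tef and Hlf have positive r with each other (0.38 to 0.76), and without the 2 farthest libraries this is 0.11 for Dbp with Hlf and 0.23 for Dbp with Tef.

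Since Arntl was low in all HFD-post muscles and in a pair of CON-post muscles, the exercise contrasts were also fitted with the log2 level of Arntl as a covariate, an alternative added after the data had been seen. Nfil3 kept both calls, with an averaged log2 fold change of 0.61 (SE 0.12, adjusted p = 0.0161, limma) and 0.84 on CON (SE 0.16, adjusted p = 0.0101). The fall of Bhlhe40 went from −0.46 to −0.27 (SE 0.086, adjusted p = 0.137), and was −0.35 on CON and −0.19 on HFD (adjusted p = 0.172 and 0.690), where it had been −0.39 and −0.52. The averaged change of Rora went from 0.29 to 0.23 (SE 0.080, adjusted p = 0.185), and both calls were lost. Their unadjusted p was 0.00715 for Bhlhe40 and 0.0125 for Rora (limma). Over all genes, the calls went from 435 to 247 averaged, from 125 to 159 on CON and from 61 to 19 on HFD. Hlf and Dbp were then −0.27 and −0.28 (adjusted p = 0.135 and 0.272). Arntl itself had an averaged log2 fold change of −0.46 (SE 0.23, adjusted p = 0.307), with −0.10 on CON and −0.81 on HFD (unadjusted p = 0.0249, limma). On HFD every muscle after exercise had less Arntl than every muscle before it, so there Arntl and exercise cannot be told apart. Whether the level of Arntl stands for the time of day of each muscle was not tested.

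Of the core clock genes, 15 of 17 were tested and 1 was called in any contrast: Cry2, a repressor of the loop, rose with exercise averaged over diets by 0.50 (SE 0.086, adjusted p = 0.00309, limma), in a contrast that called 3.86% of all genes. Nr1d1 had a change of −0.88 (adjusted p = 0.0740) and Clock of −0.29 (adjusted p = 0.0887), neither past the threshold. Their median log2 fold change was 0.06, against 0.01 for all genes.

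Of 7 genes known as PAR bZIP targets in other tissues, 4 were expressed highly enough to test. Pdxk, the pyridoxal kinase that makes the active form of vitamin B6, rose on CON by 0.73 (SE 0.13, adjusted p = 0.00672, limma) and on HFD by 0.85 (SE 0.13, adjusted p = 0.00470). Por, Alas1 and Ppara did not pass in any contrast, with averaged changes of 0.26, 0.05 and 0.07. The targets gave 1 call in 4 on each diet, against 1.11% of all genes on CON and 0.542% on HFD, and the activators Dbp, Tef and Hlf were not called. This list was chosen with earlier results of these data known, so its share of calls is a description and no test.

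Of 10 genes described as outputs of the muscle clock, 3 rose on CON and 1 on HFD, where 1.11% and 0.542% of all genes were called. This list, too, was chosen with earlier results of these data known, so its shares do not test whether muscle clock outputs respond. Hk2, the hexokinase of muscle, rose by 1.05 on CON (adjusted p = 7.40e-05, limma) and by 1.15 on HFD (adjusted p = 8.37e-05). Pdk4, which restrains pyruvate dehydrogenase, rose on CON by 1.38 (adjusted p = 0.00210) and Ucp3, a mitochondrial carrier, by 0.87 (adjusted p = 0.00878). On HFD their changes were 0.44 and 0.28 (adjusted p = 0.438 and 0.528, limma). Their interactions of diet and exercise were −0.94 and −0.59 (unadjusted p = 0.00620 and 0.0191) and did not pass after adjustment. Cdkn1a, a cell cycle inhibitor, passed only in the averaged contrast, in which it rose (0.56, adjusted p = 0.0125), where 4 of the 10 and 3.86% of all genes were called. Their median in that contrast was 0.21, against 0.01 for all genes, and 0 of the 10 fell.

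Of the cell markers, Des and Pecam1 were called with exercise. With exercise averaged over diets, 1 of 10 muscle markers rose (Des, 0.23, adjusted p = 0.0322, limma), where 3.86% of all genes were called. The muscle list had a median of −0.04, with 4 members higher and 6 lower. Of 4 endothelial markers Pecam1 rose (averaged 0.36, adjusted p = 0.00141, and 0.39 on HFD, adjusted p = 0.0347), in contrasts that called 3.86% and 0.542% of all genes. The other 3 were not called (−0.01 for Cdh5, −0.10 for Kdr and 0.02 for Tek, averaged), the summed endothelial level being 37.02 to 49.9 FPKM before and 44.3 to 56.9 FPKM after. Of 6 adipocyte markers, Cfd was lower and Lep higher on HFD in both states, where 0.346% of all genes were called before exercise and 0.151% after. None of the 6 was called with exercise, although all 6 were higher with exercise averaged over diets (median 0.27) and on HFD (median 0.48). The 6 slow-fibre markers were also higher in both (medians 0.14 and 0.26, against 0.01 and 0.04 over all genes tested), and the 3 liver markers tested were lower (medians −0.76 averaged and −1.28 on CON), at the low levels given above. With diet, all 6 slow-fibre markers were lower on HFD before and after exercise (medians −0.64 and −0.37). Of 5 blood markers, 4 were higher with exercise on HFD (median 0.50) and 2 on CON (median −0.10). No marker of slow fibres, blood, macrophages or liver was called in any contrast, and over all contrasts, diet included, the smallest unadjusted p values were those of Tnnc1 and Tnnt1, Hba-a2 and Hbb-bt, Lyz2 and Cd163, and Alb and Apoa1. The part of these cells in the changes of Nfil3, Bhlhe40 and Rora was not tested.

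The genes whose levels were most like those of a factor over the 16 libraries, across all groups, were found by Pearson r of log2(FPKM + 0.5), given here as a description over libraries that share groups. Nfil3 was followed most closely by Optn (r = 0.90), Wbp1l (0.89) and Npc1 (0.88), and Bhlhe40 by Sh3bgr (0.91), Acin1 (0.90) and Nr1d1 (0.89). For Tef they were Zbtb12 (0.84) and the clock gene Per3 (0.82) and the cell cycle kinase Wee1 (0.81). Bhlhe41 was nearest to Arrdc4 (0.93), Arf6 (0.90) and Anxa1 (0.88), and Rora to Smg1 (0.89), Spag9 (0.89) and Trpm7 (0.89). Likeness was weakest for Hlf, with Cxcr4 (0.79), Zfp629 (0.78) and Zfp446 (0.76), and for Dbp, with Cth (0.76), Clec3a (0.74) and Rasip1 (0.74).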

How the data were processed

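RNA sequencing of 16 quadriceps was used. The authors aligned reads with TopHat, estimated expression with Cufflinks and deposited FPKM, in which length and sequencing depth are already accounted for, so no count model was used. Their Methods name mm9, but 692 of 692 loci of the supplement overlapped the same gene in GRCm38 and 114 in mm9, so positions and sequences are from RefSeq GRCm38.p6. Of 24487 entries, 27 with date-like names were dropped (0.0771% of FPKM), and entries of 260 symbols were summed (0 for the 7 factors), leaving 23970 symbols. No column of sample values was left out (0).

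limma 3.58.1 in R 4.3.3 (statmod 1.5.0) was fitted to log2(FPKM + 0.5) of the 11256 genes that averaged 0.5 FPKM or more. The fit held all 4 groups, a mean-variance trend and no covariates. A gene was called when its Benjamini-Hochberg adjusted p over these genes was under 0.05. The pseudocount shrinks the fold changes of low genes. Single genes were also compared by exact two-sided permutation (smallest p 0.0286), and pairs of genes by two-sided permutation of libraries within groups (100000 resamples). Whether mice shared a cage or litter is not given, so p-values measure the spread between these muscles.

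The 7 factors and the gene lists (core clock, muscle clock outputs, PAR bZIP targets and markers of muscle, slow fibres, adipocytes, blood, macrophages, endothelium and liver) were chosen with earlier results of these data known. All factors were named, and of each list the called genes or, with none called, the 2 with the smallest unadjusted p, and for each factor the 3 genes with the highest r. Nr1d1, Clock and the uncalled PAR bZIP targets were named after their values were seen. Npas2, Rorb, Nr1i3, Cyp2b10, Cyp2a5 and Serpina1a were too low to test, and Adgre1 was not matched. Alternatives changed the pseudocount (0.1 or 1), the filter (none, or a mean of 1 FPKM), the scaling (upper-quartile or quantile), the groups fitted, the trend, array weights or a replicate block, or left out each library. After the data were seen, 2 were added, which used Arntl as a covariate or left out both pre-exercise libraries numbered 4. The code was tested on simulated data. Other steps used Python 3.11.15 with numpy 2.4.6, scipy 1.17.1, pandas 2.3.3 and, for figures, matplotlib 3.10.9.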

Additional observations from a re-analysis of the deposited data

Results flagged for a closer look

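Tef in CON-post had 1 muscle (replicate 4, 67.3 FPKM) far above the other 3 (55.7 to 56.8 FPKM). Its gap to the nearest muscle was 0.908 of the range of the group, above the 95% limit of Dixon's test for 4 samples. This was 1 of 28 combinations of factor and group examined, and chance alone exceeds the limit in about 1 of 20.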

How the results depend on the processing

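Of the 49 log2 fold changes of the factors, 16 changed sign in some of 1295 refits. All of these were at most 0.11 in size and were not called. The sign turned for exercise on HFD in Dbp (−0.00054 with quantile normalization, −0.28 with Arntl as a covariate), Tef (−0.014 with either) and Hlf (−0.0037 with upper-quartile scaling, −0.017 with quantile normalization, −0.19 with Arntl), and for diet before exercise in Bhlhe40 (−0.038 with array weights) and Bhlhe41 (0.012 with quantile normalization). For exercise averaged over diets it turned in Tef (−0.036 with upper-quartile scaling, −0.066 with quantile normalization, −0.048 with Arntl) and in Dbp (0.10 without both pre-exercise libraries numbered 4). With 1 library left out, the lowest and highest values of those that turned follow. For exercise on HFD they were Dbp −0.069 to 0.27, Hlf −0.0181 to 0.0909. For diet before exercise they were Dbp −0.27 to 0.10, Tef −0.0245 to 0.0506, Bhlhe40 −0.082 to 0.14, Bhlhe41 −0.18 to 0.10. For diet after exercise they were Bhlhe40 −0.23 to 0.0207, Bhlhe41 −0.23 to 0.0315, Rora −0.0166 to 0.0824. For interaction they were Bhlhe41 −0.21 to 0.0831. For exercise averaged they were Dbp −0.16 to 0.0141, Tef −0.0299 to 0.0218. For diet averaged they were Dbp −0.0198 to 0.17, Bhlhe40 −0.11 to 0.0213, Bhlhe41 −0.14 to 0.0048.

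The count of 3 factors called with exercise averaged over diets was 1 with no filter, with no mean-variance trend and with Arntl as a covariate, 2 (without Rora) with upper-quartile scaling, quantile normalization and a replicate block, and 1 to 3 with 1 library left out. It was 1 without replicate 1, 2 or 3 of CON-pre, 1 or 2 of HFD-pre, 1 or 4 of CON-post and 2 or 3 of HFD-post. The other 6 counts of called factors did not change in any alternative. The count of pairs that varied together, 1 as reported, was 11 with upper-quartile scaling, 0 with quantile normalization and 0 to 3 with 1 library left out; it was 0 in 12 of these fits and 3 without replicate 1 of HFD-pre. The causes were not tested.

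Over all genes, replicate numbers did not pair the samples by the criterion used: same-numbered libraries deviated together with r of −0.22 to 0.21 in the compared groups, although 3 of 4 libraries of CON-post and HFD-post correlated best with their own number. With a replicate block, Rora lost its averaged call (adjusted p = 0.0505, limma, log2 fold change 0.29), and no other call changed. FPKM carries no depth, and the Methods give only an approximate number of reads per sample. The counting error of Hlf, the lowest factor, was not computed.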
